A study of Mus musculus with 9 samples.

Results

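The 10 genes described here are Cd79a, Cd79b, Cd22, Blnk, Fcrla, Ms4a1, Spib, Tcf4, Siglech and Ly6d, which mark B cells, plasmacytoid dendritic cells or both. They were taken by name from a table of 23420 gene symbols, and all 10 were found in it. RNA had been sequenced in 9 libraries, each of 100 Mac1+ cells sorted from the bone marrow of the strain C57BL/6. Mac1 is the integrin of granulocytes, monocytes and many dendritic cells, whose αM chain is encoded by Itgam. The DKOITD libraries (n = 4) came from mice with the floxed alleles Ezh2 fl/fl and Runx1 fl/fl, the recombinase Rag1Cre+ and a Flt3 ITD/+ genotype, in which a Flt3 allele carries an internal tandem duplication. The ITD libraries (n = 2) had the same floxed alleles and Flt3 ITD/+ but no Cre, and the WT libraries (n = 3) had the floxed alleles with neither Cre nor ITD. Floxed alleles were therefore shared by all groups, WT included. Rag1 is active in early lymphoid progenitors, and the sources used here do not say in what share of Mac1+ cells Cre had acted. Whether each library came from its own animal or from pooled animals is not stated, and the spread behind each p-value is that between these libraries, which may be technical.

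A B cell reads antigen through a surface antibody held by the signalling chains Cd79a and Cd79b, and passes the signal on through adaptors such as Blnk, with Cd22 as a brake. Plasmacytoid dendritic cells are the main makers of type I interferon. They share several genes with B cells, because the factors Tcf4 and Spib work in both, whereas Pax5 and Ebf1, which commit cells to the B lineage, are not defining factors of plasmacytoid cells. The question asked of these genes is whether the B-associated ones that were high in DKOITD went together with genes of plasmacytoid dendritic cells or with genes of B cells.

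The depth per library, in reads recovered from the deposited values, ranged between 2826664 for DKOITD 2 and 23131438 for WT 1, so zeros in DKOITD 2 are the least certain. WT 2 stood apart, since its correlations with other libraries had a median of 0.759, where those of the others lay at 0.815 to 0.881. Ezh2 measured 18.1, 1.54, 8.04 and 10.2 RPKM (reads per kilobase of gene length, scaled to library size) in DKOITD, 12.9 and 19.0 RPKM in ITD libraries and 9.69, 2.06 and 12.4 RPKM in WT, and did not pass the test between DKOITD and WT (limma, adjusted p = 0.913, with a threshold of 0.05). Runx1 averaged 14.85 RPKM in DKOITD, 4.42 RPKM in ITD and 9.10 RPKM in WT, and did not pass either (limma, adjusted p = 0.269). It was called higher than in WT with all columns rescaled to 1 sum (2.075; limma, adjusted p = 0.00526). Scaled to recovered reads it was also called higher (1.477, adjusted p = 0.0354). Those scalings moved the median of all genes to 1.232 and 0.735. Values per gene say nothing of the floxed exons alone. The sort marker Itgam averaged 27.0 ± 12.2 RPKM in DKOITD (SD, n = 4) against 111 ± 27.9 RPKM in WT (SD, n = 3), and fell by 2.11 ± 0.40 on the log2 scale (SE; limma, adjusted p = 0.00813). With all columns rescaled to 1 sum Itgam stood at -0.74 (adjusted p = 0.124), while the median of all genes was 1.23. The 10 neutrophil markers summed to between 35400 and 265900 RPKM in DKOITD libraries, 682600 to 728800 RPKM in ITD and 879400 to 1194000 RPKM in WT. Summed T and NK cell markers lay between 2.30 and 10.7 RPKM in DKOITD libraries, 2.44 and 17.6 RPKM in ITD libraries and 9.16 and 166.5 RPKM in WT, the last in WT 2. Summed erythroid markers lay between 0 and 1.40 RPKM in DKOITD libraries, at 0 and 2730 RPKM in ITD libraries and between 17.8 and 17160 RPKM in WT, and the globin Beta-s was called lower. The part of these cells in the differences given here was not tested. In libraries of mixed cells, fewer cells of a type and less RNA per cell cannot be told apart.

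The regions upstream of 4 of these genes are printed because they hold, or lack, the short DNA words of the factors named above. Each line gives the 250 bases before the RefSeq start of the gene on GRCm38.p6, 5′ to 3′ on the gene's strand. The gene positions given below come from GENCODE and can differ. The Cd79a and Siglech regions run past the starts given there. Capitals mark GAGGAA, which reads TTCCTC on the other strand and is the core bound by Spib and its relative PU.1, and CAGGTG, which reads CACCTG on the other strand and is an E-box bound by E proteins such as Tcf4. The Fcrla region lies at chr1:170927584-170927833 on the minus strand, the Spib region at chr7:44532072-44532321 on the minus strand, the Siglech region at chr7:55767934-55768183 on the plus strand and the Cd79a region at chr7:24897247-24897496 on the plus strand.
Fcrla: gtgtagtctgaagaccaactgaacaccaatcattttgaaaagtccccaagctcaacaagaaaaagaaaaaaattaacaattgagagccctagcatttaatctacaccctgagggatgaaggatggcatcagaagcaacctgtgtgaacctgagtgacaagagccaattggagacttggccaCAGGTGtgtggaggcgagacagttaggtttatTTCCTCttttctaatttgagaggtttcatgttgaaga
Spib: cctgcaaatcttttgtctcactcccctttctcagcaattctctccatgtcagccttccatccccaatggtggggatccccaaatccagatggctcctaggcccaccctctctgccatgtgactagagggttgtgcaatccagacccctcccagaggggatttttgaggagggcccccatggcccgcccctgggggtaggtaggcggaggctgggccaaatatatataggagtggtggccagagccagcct
Siglech: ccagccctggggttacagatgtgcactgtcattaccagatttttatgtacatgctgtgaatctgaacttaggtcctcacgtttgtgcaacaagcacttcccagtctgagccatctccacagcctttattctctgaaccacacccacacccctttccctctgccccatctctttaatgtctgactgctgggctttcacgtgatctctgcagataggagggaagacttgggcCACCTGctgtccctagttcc
Cd79a: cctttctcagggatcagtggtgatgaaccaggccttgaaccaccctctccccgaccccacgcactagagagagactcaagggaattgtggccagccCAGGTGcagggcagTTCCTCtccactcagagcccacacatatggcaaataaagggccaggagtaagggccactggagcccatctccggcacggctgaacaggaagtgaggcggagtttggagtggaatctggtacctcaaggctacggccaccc

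Fcrla held both words, GAGGAA at 32 to 37 bases and CAGGTG at 64 to 69 bases before its start. Cd79a also held both, at 135 to 140 and 149 to 154 bases. Siglech held the E-box alone at 15 to 20 bases, Cd22 at 240 to 245 bases and Blnk at 155 to 160 bases, and Spib held neither word. Distances are from the RefSeq start, and the Cd22 and Blnk regions lie inside the gene positions given below. Among all 32851 promoter regions of the same length, searched on both strands, 23.3% held GAGGAA, 17.2% held CAGGTG and 3.91% held both. These are matches of letters in a window and not measured binding, and the words do not overlap each other. The promoter table matched 6 of the 10 genes, and Cd79b, Ms4a1, Tcf4 and Ly6d were not matched.

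Of the signalling chains of the B cell receptor, Cd79b rose in DKOITD and Cd79a did not pass the test. Cd79b (chr11:106311341-106314762, mm10) was high in every DKOITD library while Cd79a (chr7:24897381-24902197), its partner in the receptor, stayed near 0. Cd79b measured 64.2, 57.5, 70.7 and 42.1 RPKM in DKOITD libraries 1 to 4, 7.65 and 22.1 RPKM in ITD libraries and 12.8, 5.16 and 14.0 RPKM in WT libraries. Every DKOITD library lay above all 5 others. Cd79b averaged 58.6 ± 12.3 RPKM in DKOITD (SD, n = 4) against 10.7 ± 4.79 RPKM in WT (SD, n = 3), and rose by 2.43 ± 0.44 on the log2(RPKM + 1) scale (SE; limma with Benjamini-Hochberg adjustment over all genes, adjusted p = 0.00669).

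Cd79a measured 0, 0.206, 0 and 0.603 RPKM in DKOITD libraries, 0 and 1.09 RPKM in ITD libraries and 2.66, 0 and 0.781 RPKM in WT. The groups overlapped, and the highest library was WT 1. In recovered reads these values were 0, 1, 0 and 12 in DKOITD, 0 and 17 in ITD, and 66, 0 and 12 in WT, while the DKOITD libraries held 928, 252, 917 and 755 reads of Cd79b. The Cd79a difference between DKOITD and WT was -0.66 ± 0.49 on the log2 scale (SE; limma, adjusted p = 0.379).

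**Figure D1:**
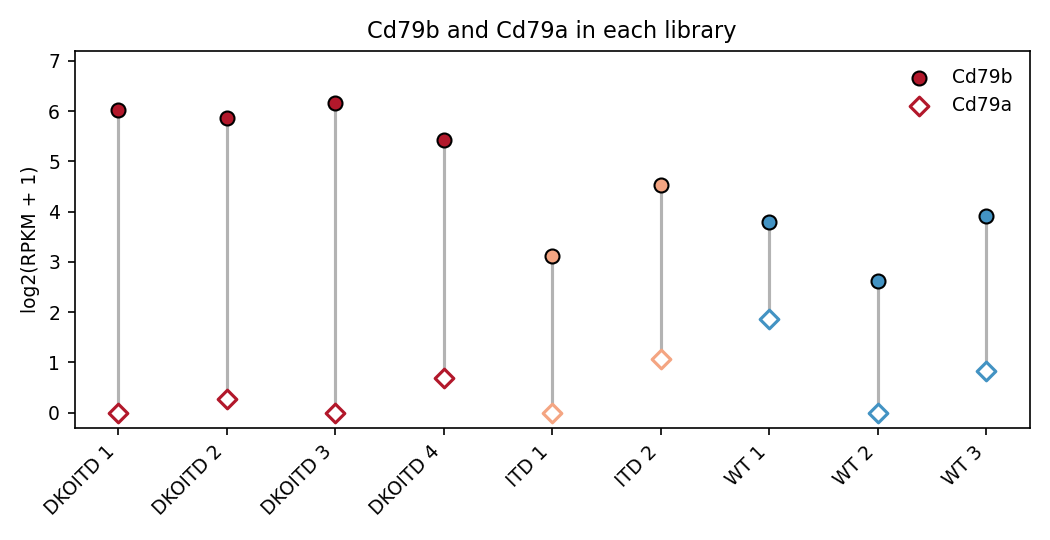
The vertical axis gives log2(RPKM + 1) for Cd79b (filled circles) and Cd79a (open diamonds), joined by a line in each of the 4 DKOITD, 2 ITD and 3 WT libraries along the horizontal axis. Cd79b is highest in the DKOITD libraries, at 42.1 to 70.7 RPKM, where Cd79a reaches at most 0.603 RPKM.

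Blnk (chr19:40928927-40994535), the adaptor that links the receptor's kinases to downstream signalling, was uneven within DKOITD. It measured 18.9, 0, 3.70 and 12.4 RPKM in DKOITD libraries, 1.73 and 0.0407 RPKM in ITD libraries and 1.99, 0.0843 and 0 RPKM in WT. DKOITD 1, 3 and 4 were above all 5 other libraries, and DKOITD 2 had no read. In DKOITD 2, 3 reads would have made 0.391 RPKM, a limit that covers counting error only. The difference was 2.01 ± 0.90 (SE; limma, adjusted p = 0.157), and without DKOITD 2 it was 2.86 (adjusted p = 0.0287).

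Cd22 (chr7:30865402-30880342), the sialic acid receptor that dampens B cell receptor signals, was read almost solely in DKOITD. It measured 12.7, 0.254, 3.19 and 0.882 RPKM in DKOITD libraries, 0 and 0.0198 RPKM in ITD libraries and 0 in all 3 WT libraries. All DKOITD libraries exceeded the others, but DKOITD 2 rested on 4 reads and ITD 2 on 1. The difference from WT was 1.77 ± 0.68 (SE; limma, adjusted p = 0.105), and 2.25 without DKOITD 2 (adjusted p = 0.0463). An annotated antisense gene, Gm29439, lies within Cd22, and the library method does not mark strand.

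Fcrla (chr1:170917576-170927583), a relative of Fc receptors that stays inside B cells, measured 9.27, 6.49, 4.98 and 1.39 RPKM in DKOITD libraries, 0 in both ITD libraries, and 0, 0.0512 and 0 RPKM in WT. The value in WT 2 was 1 read, against 193, 41, 93 and 36 reads in DKOITD. All DKOITD libraries lay above the others. Fcrla rose by 2.50 ± 0.51 against WT (SE; limma, adjusted p = 0.0109), a size that depends on the pseudocount because WT was at or near 0. The pseudogene Gm2962 lies within the gene, and near-identical copies can share reads, which leaves the level of Fcrla uncertain.

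Ms4a1 (chr19:11249675-11266241), which encodes CD20 of mature B cells, was at 0 in all 4 DKOITD libraries, both ITD libraries and 2 WT libraries. WT 1 held 0.0260 RPKM, or at least 1 read. Ms4a1 was too low to be tested, and the annotated gene 4930526L06Rik overlaps it.

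Spib (chr7:44525993-44532071), the ETS factor that B cells and plasmacytoid cells share, measured 11.1, 1.47, 5.44 and 2.30 RPKM in DKOITD and 0 in all 5 other libraries. The DKOITD libraries held 373, 15, 164 and 96 reads of it. Its upstream region, printed above, held neither of the DNA words searched. Spib rose by 2.33 ± 0.54 against WT (SE; limma, adjusted p = 0.0189), again a size set by the pseudocount. The adjusted p was 0.0565 without DKOITD 3 and 0.0507 with no filter on low values.

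Tcf4, the E protein that maintains plasmacytoid identity, was measured in all 9 libraries and its DKOITD values lay closer together than those of Spib. It measured 13.2, 9.19, 11.7 and 7.10 RPKM in DKOITD libraries, 3.19 and 3.08 RPKM in ITD libraries and 3.07, 1.13 and 0.955 RPKM in WT. The groups did not overlap, and the ITD libraries lay above all WT libraries by a small margin, as they did for 10.1% of tested genes. Tcf4 averaged 10.3 ± 2.71 RPKM in DKOITD (SD, n = 4) against 1.72 ± 1.18 RPKM in WT (SD, n = 3), and rose by 2.10 ± 0.46 (SE; limma, adjusted p = 0.0138). The adjusted p was 0.0533 without DKOITD 1 and 0.0547 without DKOITD 3. The annotated gene Gm24845 overlaps Tcf4.

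Siglech (chr7:55768178-55778925), the sialic acid receptor used to recognise mouse plasmacytoid dendritic cells, measured 5.81, 0, 1.77 and 0.974 RPKM in DKOITD and 0 in all 5 other libraries. It was read in DKOITD 1, 3 and 4 but not in DKOITD 2, where 3 reads would have made 0.342 RPKM. The difference from WT was 1.31 ± 0.56 (SE; limma, adjusted p = 0.139), and 1.74 without DKOITD 2 (adjusted p = 0.0472). Ly6d (chr15:74762056-74763620), a surface marker of B-biased lymphoid progenitors and of plasmacytoid precursors, measured 5.88 RPKM in DKOITD 1 and 0 in the other libraries. With a single library above 0 it was not tested.

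**Figure D2:**
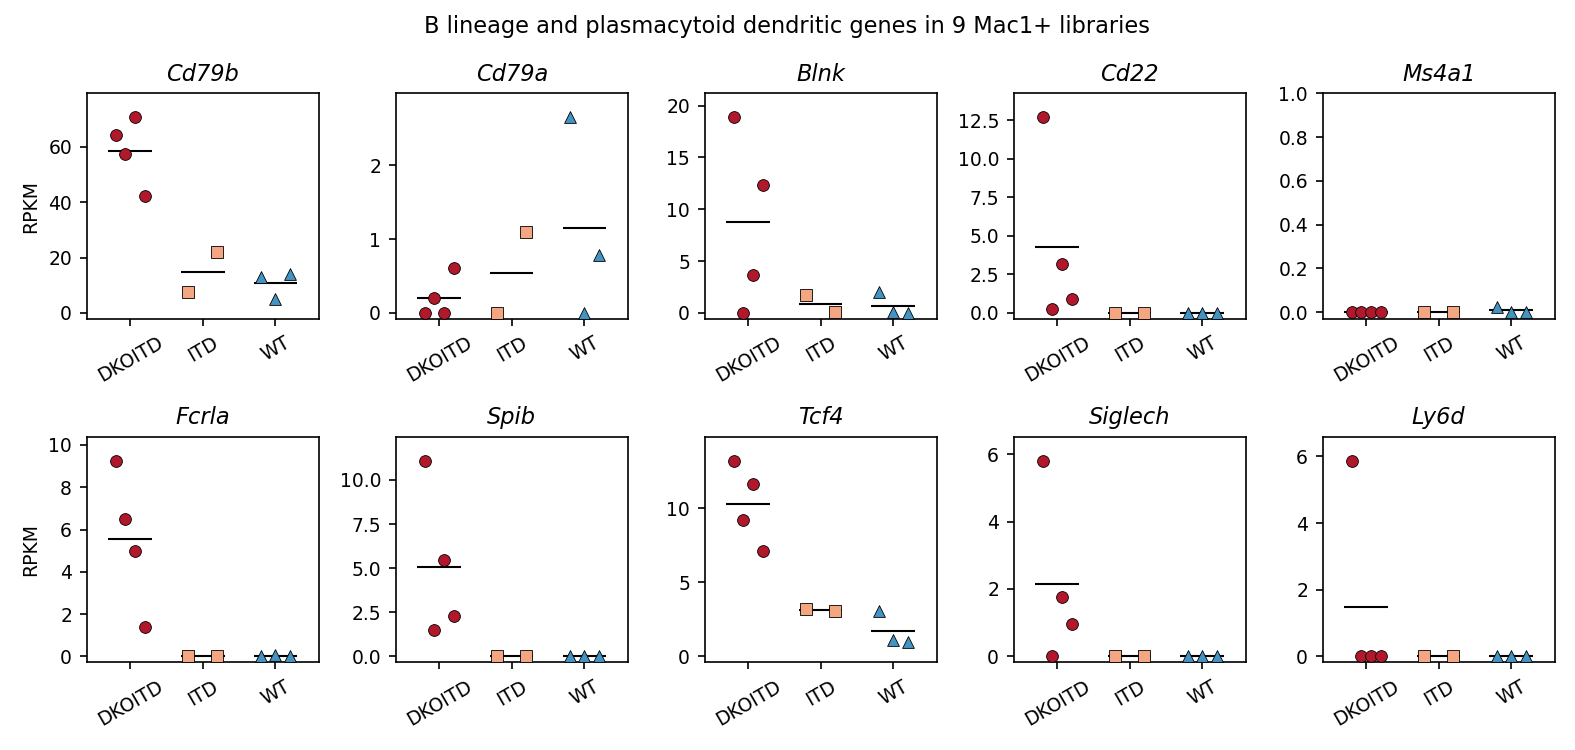
Each panel plots RPKM of 1 gene by group, with a point for each library in replicate order and a line at the group mean, on an axis scaled to that gene. All 4 DKOITD points lie above the 5 others for Cd79b, Cd22, Fcrla, Spib and Tcf4, while Blnk and Siglech have 1 DKOITD library at 0 and Ly6d has 3.

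Between DKOITD and WT, 8 of the 10 genes passed the filter on low values (at least 1 RPKM in at least 2 libraries) and 4 of them rose, namely Cd79b, Fcrla, Spib and Tcf4, where 7.43% of all 10868 tested genes rose. None of the 8 fell, where 5.27% of all genes did, and none had an unadjusted p under 0.05 with a lower level. Cd22, Fcrla, Spib and Siglech reached 1 RPKM in DKOITD alone and passed the filter through that group, so they had to be higher in it, and the count is a description. Every DKOITD library lay above all 5 others for Cd79b, Cd22, Fcrla, Spib and Tcf4, as for 7.85% of the genes tested. Spib and Siglech were above 0 in DKOITD alone, a pattern that 1.99% of the tested genes showed. Ly6d showed it too, but it was not tested and that share does not cover it. The median of all genes was 0.17 on the log2 scale. Relative to the median of all genes, which ranged from -0.03 to 1.23 under the other scalings, Cd79b stood at 2.26 to 2.52, Fcrla at 2.00 to 2.33, Spib at 1.79 to 2.16 and Tcf4 at 1.91 to 1.97.

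The labels hold numbers whose meaning is not stated, 228 to 274 for DKOITD 1 to 3 and 385 to 393 for the 6 remaining libraries. With that series as a term, DKOITD 4 alone carries the comparison, and the calls ended, with 4 of all genes rising in that fit. Cd79b then stood at 1.99 (limma, adjusted p = 0.41), Fcrla at 1.23 (adjusted p = 0.552), Spib at 1.72 (adjusted p = 0.518) and Tcf4 at 1.66 (adjusted p = 0.492). Over fits that each left out 1 library, WT 2 included, Cd79b ranged from 2.03 to 2.67 with an adjusted p of at most 0.0277 and Fcrla from 2.22 to 2.92 with an adjusted p of at most 0.035. Spib and Tcf4 kept their calls without WT 2.

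DKOITD against ITD sets libraries with and without Rag1Cre beside each other where both carry the floxed alleles and the ITD allele, and it shares the DKOITD libraries with the comparison above. Cd79b differed by 2.05 ± 0.50 (SE; limma, adjusted p = 0.0757), Fcrla by 2.53 ± 0.58 (adjusted p = 0.0665) and Spib by 2.33 ± 0.61 (adjusted p = 0.0935). Tcf4 differed by 1.42 ± 0.52 (adjusted p = 0.206), Cd22 by 1.76 ± 0.77 (adjusted p = 0.298), Blnk by 1.82 ± 1.02 (adjusted p = 0.427) and Siglech by 1.31 ± 0.63 (adjusted p = 0.351). None of the 8 passed (0.212% of all genes did), and 5 of them had an unadjusted p under 0.05, as 1701 of all genes had. With library weights in limma the adjusted p was 0.0239 for Cd79b, 0.0304 for Fcrla and 0.041 for Spib, and without DKOITD 4 that of Fcrla was 0.0221. Scaled to recovered reads it was 0.032 for Cd79b and 0.0373 for Fcrla. With all columns rescaled to 1 sum, which moved the median of all genes to 0.99, it was 0.0116 for Cd79b, 0.0173 for Fcrla, 0.0245 for Spib and 0.0231 for Tcf4.

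ITD against WT, which shares libraries with both other comparisons, asks what goes with the Flt3 ITD allele alone. Tcf4 differed by 0.69 ± 0.55 (SE; limma, adjusted p = 0.775), Cd79b by 0.38 ± 0.53 (adjusted p = 0.869), Blnk by 0.19 ± 1.08 (adjusted p = 0.995) and Cd79a by -0.37 ± 0.59 (adjusted p = 0.89). None of the 8 passed, where 0.0092% of all genes did, and none had an unadjusted p under 0.05, as 862 of all genes had. Spib and Siglech were at 0 in both groups.

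**Figure D3:**
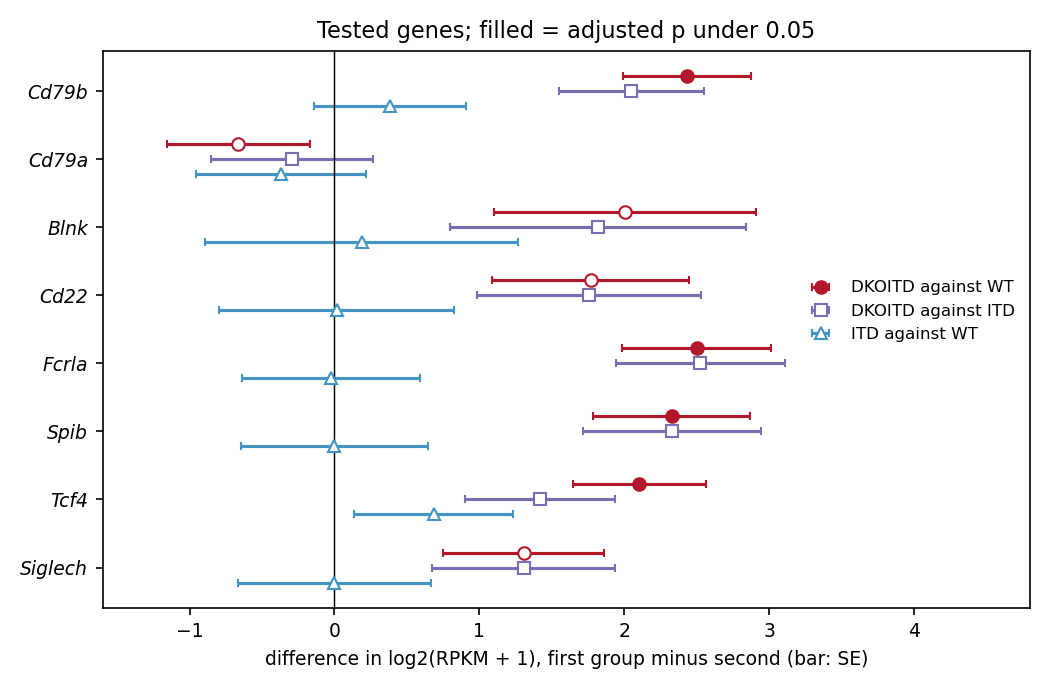
The horizontal axis gives the difference in log2(RPKM + 1) between the first and the second group named in the legend, with bars of 1 SE, for the 8 tested genes. Filled symbols mark an adjusted p under 0.05, which only Cd79b, Fcrla, Spib and Tcf4 reach, in DKOITD against WT.

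The other genes of the B lineage varied. Pax5 and the kinase Blk were listed at 0 in all 9 libraries. The haemoglobin genes Hba-a1 and Hba-a2 were also listed at 0 throughout although the globin Beta-s reached 17100 RPKM in WT 1, so a symbol at 0 in every library may not have been counted. Ebf1 was above 0 in DKOITD 3 alone, at 0.0823 RPKM or at least 1 read. The coactivator Pou2af1 was above 0 in ITD 1 alone, at 0.0831 RPKM. Of the 15 further B cell genes listed besides the 10, 12 were found in the table and 4 were tested. Ighm and Ighd, the antibody heavy chain genes listed, were among those not found, so they could not be read here. None of the 4 rose between DKOITD and WT and 1 fell, where 7.43% and 5.27% of all genes did. Of the 4, 2 had an unadjusted p under 0.05 and a higher level in DKOITD. The median of the 4 was 1.11 beside 0.17 for all genes, and Fcer2a, 1 of the 4, reached 1 RPKM in DKOITD alone. Fcrl1, a receptor-like protein of B cells, measured 27.4, 12.2, 17.2 and 6.50 RPKM in DKOITD libraries, 3.24 and 13.3 RPKM in ITD libraries and 4.81, 6.28 and 4.57 RPKM in WT. All DKOITD libraries were above WT and 2 were below ITD 2 (1.28 ± 0.55, SE; limma, adjusted p = 0.137). Ralgps2 stood at 1.42 ± 0.48 (SE; limma, adjusted p = 0.0692). Bank1, a scaffold of B cell receptor signalling, fell by 1.97 ± 0.45 on the log2 scale (SE; limma, adjusted p = 0.017; adjusted p = 0.0509 without DKOITD 1, and -1.04 with adjusted p = 0.0991 where columns were rescaled to 1 sum), with 0.894 ± 0.508 RPKM in DKOITD (SD, n = 4) against 6.29 ± 1.29 RPKM in WT (SD, n = 3). The 12 genes summed to between 9.80 and 31.2 RPKM in DKOITD libraries, 7.02 and 17.7 RPKM in ITD libraries and 10.4 and 15.1 RPKM in WT.

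Several genes of B cell precursors and plasma cells were listed at 0. The surrogate light chain genes Igll1, Vpreb2 and Vpreb3 and the recombination genes Dntt and Rag2 were at 0 in every library. Vpreb1 was at 0 in DKOITD, at 0.278 RPKM in ITD 1 and at 0.562 RPKM in WT 3. Among the 3 tested precursor genes Il7r rose and Cd24a fell, where 7.43% of all genes rose and 5.27% fell. Il7r, the receptor of interleukin 7 on lymphoid cells, measured 6.41, 16.3, 4.06 and 2.02 RPKM in DKOITD and 0 in all 5 others (2.73 ± 0.56, SE; limma, adjusted p = 0.0108). Il7r reached 1 RPKM in DKOITD alone and passed the filter through that group, so it had to be higher in it. Cd24a, which neutrophils also express strongly, fell by 3.64 ± 0.60 (SE; limma, adjusted p = 0.00459). Of the plasma cell genes, Igj, Mzb1 and Tnfrsf17 were at 0 throughout. Of the 3 tested, Irf4 rose, where 7.43% of all genes rose. Irf4, which dendritic cells also use, rose by 2.76 ± 0.65 (SE; limma, adjusted p = 0.0207). Its adjusted p was 0.0645 without DKOITD 1, 0.0632 without DKOITD 3, 0.0601 without WT 2 and 0.0723 with no filter on low values.

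Genes of plasmacytoid cells were read next. Of the 20 listed besides the 10 genes all were found, 15 were tested and 5 rose between DKOITD and WT, where 7.43% of all genes rose, with a median of 1.06 beside 0.17 for all genes. The risers were Bst2, Irf8, Pld4, Upb1 and Tspan13, none of which is confined to plasmacytoid cells. Bst2, a surface protein that interferon also induces, measured 239.7, 45.7, 137 and 89.2 RPKM in DKOITD libraries, 40.3 and 60.8 RPKM in ITD libraries and 16.5, 3.58 and 19.9 RPKM in WT. DKOITD 2 lay within the range of the ITD libraries. Bst2 rose by 3.20 ± 0.60 against WT (SE; limma, adjusted p = 0.00741), the nuclease Pld4 by 2.46 ± 0.28 (adjusted p = 0.000809) and the enzyme Upb1 by 3.61 ± 0.74 (adjusted p = 0.0108; adjusted p = 0.0523 with no filter on low values). ITD libraries held 192.3 and 240.5 RPKM of Pld4, against 53.1 to 84.5 RPKM in WT. They held 8.46 and 11.7 RPKM of Upb1, against 0 to 1.14 RPKM in WT and 2.29 RPKM in DKOITD 2. Between DKOITD and ITD, Pld4 differed by 0.80 ± 0.32 (SE; limma, adjusted p = 0.244) and Upb1 by 0.52 ± 0.84 (adjusted p = 0.822). Between ITD and WT none of the 15 passed, and 5 had an unadjusted p under 0.05 and a higher level in ITD. Of all genes 862 had such a p in either direction.

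Irf8, a factor of monocytes and all dendritic cells, rose by 1.42 ± 0.41 (SE; limma, adjusted p = 0.0419). Its adjusted p lay above 0.05 in 7 of the fits that each left out 1 library, among them 0.12 without DKOITD 1, 0.119 without DKOITD 3 and 0.089 without WT 3. Irf7, the regulator of interferon genes, did not pass (1.75 ± 0.89, SE; limma, adjusted p = 0.206), though it did without DKOITD 2 (2.80; adjusted p = 0.00418). Bcl11a stood at 0.87 ± 0.55 (adjusted p = 0.303) and Runx2 at 0.03 ± 0.49 (adjusted p = 0.97).

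Among other plasmacytoid markers Pacsin1 and Klk1 were listed at 0 in all 9 libraries, with the same limit as for Pax5. Ccr9 measured 1.73 RPKM in DKOITD 3 and 0.0566 RPKM in DKOITD 1, and Cox6a2 measured 0.503 RPKM in DKOITD 1 alone. The 20 genes summed to between 2183 and 3153 RPKM in DKOITD libraries, 3639 and 3905 RPKM in ITD libraries and 2630 and 3199 RPKM in WT, a sum made up mostly of Ly6c2, which monocytes also express.

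Conventional dendritic genes were also higher in the DKOITD libraries. Of 17 tested, 15 rose between DKOITD and WT, where 7.43% of all genes rose, with a median of 5.44 beside 0.17 for all genes. Ccr7, counted among them, and Zbtb46 reached 1 RPKM in DKOITD alone and passed the filter through it. The 18 listed genes summed to between 9546 and 38320 RPKM in DKOITD libraries, 4279 and 11500 RPKM in ITD libraries and 108 and 1308 RPKM in WT. Itgax, the integrin CD11c, rose by 3.08 ± 0.50 (SE; limma, adjusted p = 0.00423). Zbtb46, a factor of conventional dendritic cells, measured 8.38, 0.0820, 9.26 and 2.44 RPKM in DKOITD and 0 in all 5 others (2.12 ± 0.68, SE; limma, adjusted p = 0.0608; adjusted p = 0.00896 without DKOITD 2). As with Siglech and Blnk, the low DKOITD library was DKOITD 2. How far conventional dendritic cells account for the levels of the 10 genes was not tested.

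**Figure D4:**
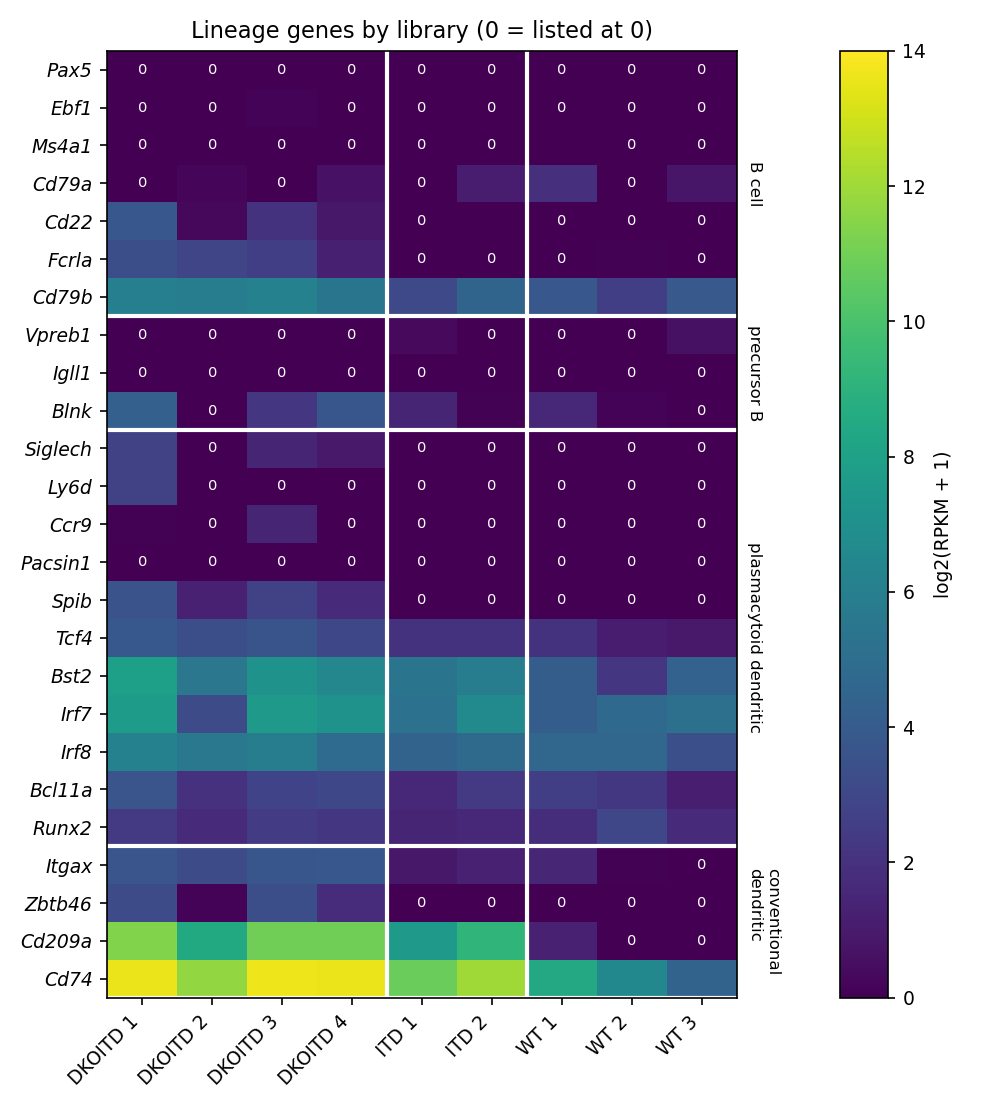
Colour gives log2(RPKM + 1) of lineage genes (rows, grouped by lineage) in each library (columns, grouped as DKOITD, ITD and WT), and a printed 0 marks a value listed at 0. Pax5 and Igll1 are at 0 in all 9 libraries, Siglech and Spib are read in DKOITD libraries alone, and Cd74 is at 3404 to 12960 RPKM in DKOITD.

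Of 22 tested genes of the B cell receptor pathway, 4 rose and 1 fell between DKOITD and WT (7.43% and 5.27% of all genes), with a median of 0.00 beside 0.17 for all genes. The risers were Cd79b, Fcgr2b, Dapp1 and Lat2, and the last 3 also work in myeloid cells. Fcgr2b, the inhibitory Fc receptor, averaged 304 ± 49.5 RPKM in DKOITD (SD, n = 4) against 72.1 ± 35.9 RPKM in WT (SD, n = 3), a rise of 2.20 ± 0.37 (SE; limma, adjusted p = 0.0049). Lat2, an adaptor also of mast cells and monocytes, rose by 2.57 ± 0.44 (SE; limma, adjusted p = 0.00504). It measured 51.0 and 47.6 RPKM in ITD libraries, against 8.44 to 23.7 RPKM in WT and 39.9 RPKM in DKOITD 2. Between DKOITD and ITD, Lat2 differed by 0.72 ± 0.50 (SE; limma, adjusted p = 0.529). The kinase gene Prkcb fell by 1.66 ± 0.46 (SE; limma, adjusted p = 0.0368), though its groups overlapped and its call was lost in 7 of the fits without 1 library, such as without WT 2 (adjusted p = 0.122).

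Among the transcription factors of the B and plasmacytoid lineages, 18 were tested, 6 rose and 1 fell, with a median of 0.83 beside 0.17 for all genes. Of all genes 7.43% rose and 5.27% fell. Tcf4, Spib, Id3, Bach2, Irf4 and Irf8 rose, and Ikzf1 fell. Spib and Bach2 reached 1 RPKM in DKOITD alone and so had to be higher in it. Id3, an inhibitor of E proteins such as Tcf4, measured 12.4, 6.89, 4.56 and 3.92 RPKM in DKOITD libraries, 0 and 5.91 RPKM in ITD libraries and 0 in all 3 WT libraries (2.88 ± 0.64, SE; limma, adjusted p = 0.0154; adjusted p = 0.0602 with no filter on low values). DKOITD 3 and 4 lay below ITD 2.

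The 10 genes were not all read in the same DKOITD libraries. DKOITD 1 held the highest value of 7 of them, Cd22, Blnk, Fcrla, Spib, Tcf4, Siglech and Ly6d, whereas Cd79b was highest in DKOITD 3. DKOITD 2 held 57.5 RPKM of Cd79b and 6.49 RPKM of Fcrla with no read of Blnk, Siglech or Ly6d. It held 252 reads of Cd79b and 41 of Fcrla. In each of the 9 libraries, between 3 and 8 of the 10 genes were above 0, with 8, 6, 7 and 8 in DKOITD, 3 and 5 in ITD, and 5, 4 and 3 in WT.

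Likeness between genes was measured as the root-mean-square difference of their log2(RPKM + 1) values over the 9 libraries, each gene centred on its own mean, so a low value means alike patterns and low genes lie close to each other by their small range. Cd22 and Siglech were 0.348 apart, Cd22 and Spib 0.408, Spib and Siglech 0.533, Fcrla and Spib 0.554, and Cd79b and Tcf4 0.56. Cd79b lay 1.491 from Cd79a. Over all tested genes the closest to Cd79b was Rpl10a (0.215), a ribosomal protein gene with processed copies, followed by the transporter Slc7a6 (0.335), Gcat (0.388), Fcgr2b (0.393) and Pdp2 (0.408).

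The genes nearest to Fcrla were the calcium channel subunit Cacnb3 (0.325), Ppp1r14a (0.348), Nmnat1 (0.349), the interleukin 2 receptor chain Il2ra (0.412) and Rabl2 (0.413). Spib lay closest to Tnfrsf4 (0.228), the costimulatory receptor OX40, then to St8sia6 (0.239), Cacnb3 (0.34) and Rab39 (0.36). Nearest to Tcf4 were Dpy19l1 (0.235), Prcp (0.247), the protease inhibitor Cst3 (0.251), which dendritic cells express strongly, Filip1l (0.265) and Sod1 (0.27). None of the 4 genes had another of the 10 among its 5 nearest.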

How the data were processed

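RNA had been measured in 9 libraries of 100 Mac1+ cells with Smart-seq2, which does not mark strand. The authors deposited RPKM, 1 value for each gene symbol and library. Per the submitters' processing notes, STAR 2.4.2a, SAMtools 1.1, HTSeq 0.6.1p1 and mm10 were used, in roles not stated. The sources used here do not say how RPKM was scaled. Whole reads were recovered for 15564 of 15566 genes above 0 in any library (tolerance 0.001 reads) by fitting a gene length of 20 to 30000 bp, GENCODE vM21 lengths preferred. The reads, from 2826664 to 23131438 per library, serve for depth, for the limit that 0 reads allow (3 reads) and for 1 rescaling. The denominator in each RPKM column was 1.13 to 1.44 times these reads in DKOITD, 0.853 to 0.918 times in ITD and 0.703 to 0.809 times in WT. Limits cover counting error only, since PCR reads are not independent molecules.

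Groups came from the sample titles. The 10868 genes that reached 1 RPKM in 2 or more libraries entered a limma 3.58.1 fit (R 4.3.3; lmFit, eBayes with a trend) of log2(RPKM + 1) over all 9 libraries, with genotype as the only factor. The 3 comparisons were tested two-sided with Benjamini-Hochberg adjustment over all genes and a threshold of 0.05. Differences on this scale understate changes of low genes. The fit was tested on simulated data.

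The genes and lists were chosen with earlier results of these data known. All 10 genes are given in every library. From each marker list up to 4 genes past the threshold are named with values, plus set defining markers, and for each called gene its 5 nearest genes, and 2 genes these rules name are not reported here. Blk, Klk1, Cox6a2, Pou2af1, Ly6c2, Fcrl1, Ralgps2 and other genes named besides were chosen after their values were seen. Gene positions are from GENCODE vM21 on mm10. Alternatives were another pseudocount, filter, scaling, library weights, 2 groups alone, a replicate block, the label number series as a term and each library left out.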

Additional observations from a re-analysis of the deposited data

Results flagged for a closer look

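In the DKOITD group of 4 libraries, 34 genes were checked for a library far from the others, and 4 had one. The usual rate of about 1 in 20 does not apply here, since a gene read in 1 library alone is always flagged. The genes also share libraries, so the count is a description. Ly6d stood at 5.88 RPKM in DKOITD 1 and at 0 in the other 3. Ccr9 stood at 1.73 RPKM in DKOITD 3, where the next highest library had 0.0566 RPKM. Ebf1 stood at 0.0823 RPKM in DKOITD 3, at least 1 read, with 0 in the other 3. Cd74 was lowest in DKOITD 2, at 3404 RPKM, while the other 3 lay between 12120 and 12960 RPKM.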

How the results depend on the processing

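Counts of changed genes moved with the settings, and the cause was not tested. For DKOITD against WT, 807 genes rose and 573 fell, and with each library left out in turn the counts ran from 317 to 1170 and from 220 to 785. They were 450 and 283 with no filter, 5008 and 127 with all columns rescaled to 1 sum, 2525 and 247 scaled to recovered reads, and 4 and 0 with a term for the label numbers.

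For DKOITD against ITD, 17 rose and 6 fell, with ranges of 0 to 61 and 0 to 96 over libraries left out. The counts were 33 and 26 with pseudocount 5, 18 and 3 with pseudocount 0.1, 14 and 10 with no filter, and 2 and 2 with at least 5 RPKM. They were 1535 and 40 rescaled to 1 sum, 25 and 17 with quantile normalization, 248 and 26 scaled to recovered reads, 278 and 248 with library weights, 36 and 10 with the 2 groups alone, and 0 and 0 with the label number term. For ITD against WT, 1 rose and 0 fell, with ranges of 0 to 46 and 0 to 1, and 2 rose with pseudocount 0.1, 3 with no filter and 0 with the 2 groups alone.

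Same-numbered libraries did not deviate together (correlations of -0.0444 to 0.0707). With the replicate number as a block, 472 rose and 412 fell for DKOITD against WT, 18 and 39 for DKOITD against ITD, and 0 and 0 for ITD against WT. With the block Cd79b stood at 2.58, Fcrla at 2.92, Spib at 2.53 and Tcf4 at 2.25 between DKOITD and WT, all past the threshold. The block ended the calls of Bank1 (-1.95, adjusted p = 0.0605) and Irf4 (2.76, adjusted p = 0.0657), and of the lineage factors 4 rose and 0 fell.

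Some differences that were not called changed sign. For DKOITD against WT, Ezh2 was -0.16 with quantile normalization, -0.00 with the block and -0.52 to 0.71 in fits without a library. Runx2 was -0.001 with pseudocount 5, -0.15 with quantile normalization and -0.21 to 0.44 without a library. Cd79a for DKOITD against ITD was 0.15 with the label number term and between -0.83 and 0.24 in fits without a library. For ITD against WT, Blnk was -0.09 with library weights and -0.51 to 0.88 without a library, while over those fits Cd79a was -0.90 to 0.16 and Cd79b -0.33 to 1.09.

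Of 20 alternatives, the label number term alone ended the calls of Cd79b and Fcrla in DKOITD against WT. Spib and Tcf4 lost theirs in 3 each. The shallow DKOITD 2 limits what a 0 there shows.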
